A study of Mus musculus with 9 samples.

Results

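The genes described here are the monoamine oxidases Maoa and Maob, the aldehyde dehydrogenase Aldh2 and 7 enzymes that act on tryptophan or on tryptamine, namely Ddc, Tph1, Inmt, Ido1, Tdo2, Afmid and Kmo. These 10 genes were chosen by symbol from the 28932 genes of the deposited tables, and each is represented by its transcript entry with the highest mean count over the 9 libraries. For 9 of them the symbol stood in the tables as such. Afmid stood only in entries named jointly for Syngr2 and Afmid, so its own RefSeq transcript was used and its values carry that uncertainty. The cells are labelled Hepa 1 WT, a mouse hepatoma line, and the cell line field reads HC1C. They received FICZ (6-formylindolo[3,2-b]carbazole) at 10 nM, tryptamine at 50 uM or a control treatment, and the treatments lasted 6 h. The treatment field calls the controls untreated, whereas the protocol names a vehicle, and no genetic change is given for any group. There were 3 libraries of FICZ-treated cells, 3 of tryptamine-treated cells and 3 of control cells. Nothing in the labels says that the 3 libraries of a group came from separate cultures, so p-values measure only the spread between these libraries, which may be technical.

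Monoamine oxidases are flavoenzymes of the mitochondrial outer membrane that oxidise amines such as serotonin and tryptamine to aldehydes, releasing ammonia and hydrogen peroxide. From tryptamine they make indole-3-acetaldehyde, which aldehyde dehydrogenases turn into indole-3-acetic acid. Tryptophan itself reaches tryptamine through a decarboxylase, serotonin through a hydroxylase, and kynurenine through dioxygenases, of which TDO2 is the one typical of liver. FICZ is a high-affinity ligand of the aryl hydrocarbon receptor (AhR), and the series title names tryptamine as a proligand of that receptor whose action depends on monoamine oxidases.

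Of the 10 genes, 8 had at least 1 count in some library, but only Maoa, Aldh2 and Afmid had enough counts to be tested. A gene was tested where edgeR's filterByExpr function kept it, and 12374 genes were kept in all. Just inside that threshold among the 10 genes stood Afmid, with a mean of 262 counts per library, and just outside it Tdo2, with a mean of 3.44. Levels are in CPM, edgeR's reads scaled to the size of the library, and were compared between genes per kilobase of transcript. On that scale Aldh2 averaged 81.7 over the 9 libraries, above 91.9% of the genes tested. Maoa averaged 20.2 CPM per kb, above 65.1% of the genes tested, and Afmid 7.80, above 41.0%, while the median of the genes tested was 11.3. With the entries used, Aldh2 was thus 4.05 times as high as Maoa, and Maoa 2.59 times as high as Afmid. The order of these 3 genes was the same in each of the 3 groups. These per-kilobase values depend on the length of the entry used. A 1885-nt entry of Aldh2 held a mean of 4503 counts, beside 4524 in the 3867-nt entry used. A 2484-nt entry of Maoa held 1116, beside 1206 in the 4161-nt entry used. Ratios and ranks with other entries were not examined.

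**Figure D1:**
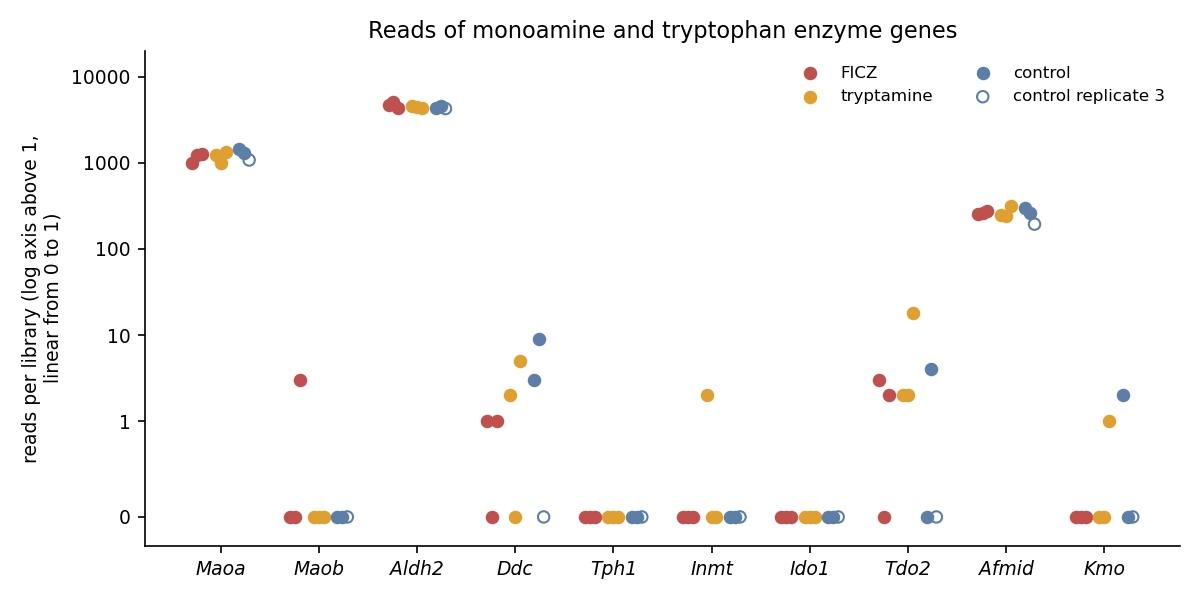
Reads of the 10 genes in every library, with counts on a logarithmic axis above 1 and a linear one from 0 to 1, and FICZ, tryptamine and control libraries from left to right for each gene. Aldh2 lay between 4261 and 5128 reads, Maoa between 1000 and 1434 and Afmid between 194 and 318, and no other gene passed 18 reads in a library.

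Depth ran from 11594795 gene counts in control replicate 3 to 16715843 in FICZ replicate 2, and each library reached 10 counts for 11875 to 12287 genes. One library, control replicate 3, differed from the rest: across genes it correlated at 0.954 to 0.960 with the others, which correlated among themselves at 0.987 or more. For 1132 genes with transcripts of up to 1000 nt, its median log2 difference from the mean of the other 2 controls was 0.61, and for 2118 genes with transcripts above 5000 nt it was -0.69. In that library Maoa (4161 nt) differed from the other controls by a log2 difference of -0.02, Aldh2 (3867 nt) by 0.25 and Afmid (2332 nt) by -0.20. Results are therefore given with and without this library. Of 9 hepatocyte and hepatoma markers, 6 passed the filter and Ttr, Apoa1 and Hnf4a were listed at 0. Their summed level lay between 4410 and 4571 CPM in FICZ libraries, between 4637 and 4833 CPM in tryptamine libraries and between 4883 and 6779 CPM in controls. Against control, the median log2 fold change of the 6 tested was -0.31 for FICZ and -0.24 for tryptamine. Without control replicate 3 these medians were -0.16 and -0.10, so part of the difference moved with that library. Of 7 fibroblast and stellate cell markers, 5 passed the filter and Lum was listed at 0, with sums of 1589 to 1710 CPM, 1587 to 1727 CPM and 1364 to 1650 CPM in the FICZ, tryptamine and control libraries. The median log2 fold change of these 5 was 0.09 for FICZ and 0.14 for tryptamine, and -0.12 and 0.04 without control replicate 3. Of 7 blood and endothelial markers, 1 passed and Emr1, Hbb-b1 and Cdh5 were listed at 0, with sums of at most 5.79 CPM in any library. Of 7 serotonergic and enteroendocrine markers, 3 passed and Chga and Fev were listed at 0, with sums of 8.82 to 11.5 CPM in FICZ libraries, 8.03 to 8.45 CPM in tryptamine libraries and 8.25 to 14.8 CPM in controls. The median log2 fold change of these 3 was -0.12 for FICZ and -0.42 for tryptamine, and 0.10 and -0.23 without control replicate 3. The part of these differences in the results below was not tested, and fewer cells of a type cannot be told apart from less RNA per cell. Cyp1a1, the cytochrome P450 gene by which AhR activity is usually read, averaged 1003 ± 45.2 CPM with FICZ, 703 ± 44.0 CPM with tryptamine and 59.2 ± 4.31 CPM in controls (SD, n = 3 each). It rose with both agents, with a log2 fold change of 4.08 ± 0.10 for FICZ and 3.57 ± 0.10 for tryptamine (SE; edgeR's quasi-likelihood test with Benjamini-Hochberg adjustment, adjusted p = 5.0e-09 and 1.7e-08).

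Maoa encodes the monoamine oxidase that prefers serotonin, and it was the only one of the pair with more than 3 reads. Its level was lower in every FICZ library and in every tryptamine library than in any control, but neither difference passed the test. Its entry (gene ID 17161, NM_173740, 4161 nt in 15 exons) held 1004, 1217 and 1260 reads with FICZ, 1230, 1000 and 1338 with tryptamine and 1434, 1297 and 1078 in controls. Scaled to the library size these were 71.4, 72.5 and 86.1 CPM with FICZ, 83.7, 77.2 and 86.3 CPM with tryptamine and 97.0, 89.2 and 92.0 CPM in controls. The highest treated library, tryptamine replicate 3, lay just under the lowest control, replicate 2, and the FICZ and tryptamine libraries overlapped each other. Among all genes tested, 7.41% were likewise lower in every FICZ library than in any control, and 4.87% were lower in every tryptamine library in the same way.

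Group means of Maoa were 76.7 ± 8.20 CPM with FICZ, 82.4 ± 4.68 CPM with tryptamine and 92.7 ± 3.95 CPM in controls (SD, n = 3 each). The log2 fold change was -0.27 ± 0.106 for FICZ against control (SE), a level 17.3% lower, with a 95% interval of -0.51 to -0.04. By edgeR's quasi-likelihood test its p was 0.0259, and its Benjamini-Hochberg adjusted p over all genes was 0.601. An unadjusted p under 0.05 was reached by 8.11% of all genes in that comparison. For tryptamine against control the log2 fold change of Maoa was -0.17 ± 0.106, with a 95% interval of -0.40 to 0.06 and an adjusted p of 0.741 in the same edgeR fit. Without control replicate 3 the values were -0.28 ± 0.0902 for FICZ (adjusted p = 0.216) and -0.18 ± 0.0903 for tryptamine (adjusted p = 0.786), again by edgeR. On the linear scale the 95% interval over 9 libraries ran from 0.703 to 0.973 of the control level for FICZ and from 0.756 to 1.05 for tryptamine.

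**Figure D2:**
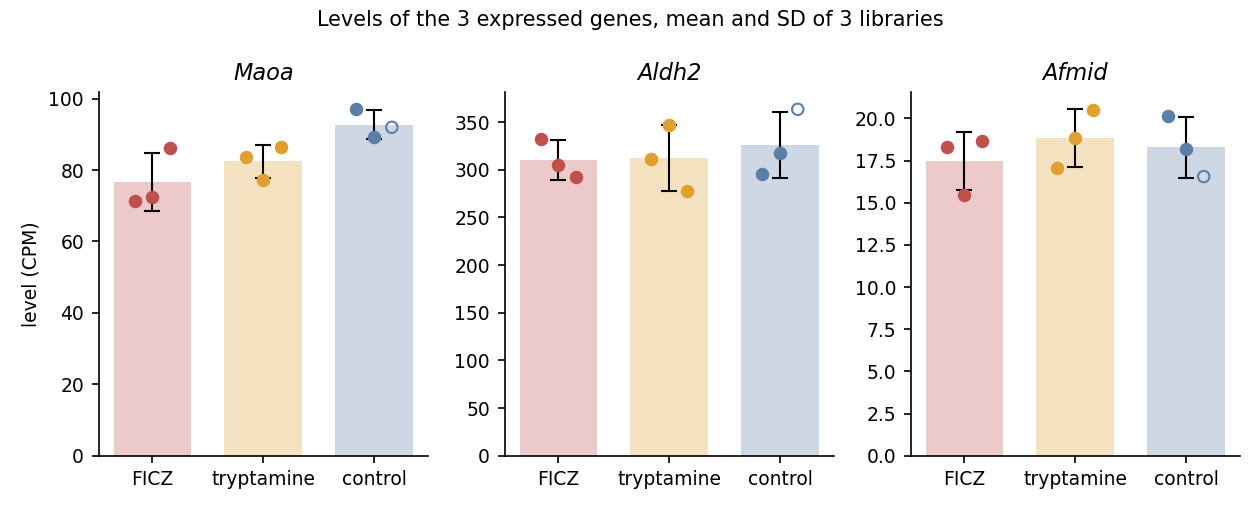
Levels of Maoa, Aldh2 and Afmid in CPM on linear axes that start at 0, with bars for group means, error bars for the SD of 3 libraries and points for single libraries in the order FICZ, tryptamine, control, the open point being control replicate 3. The Maoa means were 76.7, 82.4 and 92.7 CPM, whereas the groups overlapped for Aldh2 and for Afmid.

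The tables list 6 transcript entries for Maoa. The 4161-nt and 4067-nt entries held equal counts in some libraries, such as 1004 in FICZ replicate 1 and 1434 in control replicate 1. The full extent to which the entries count the same reads was not examined, so they are not taken as independent. The one with the fewest exons had the largest of their fold changes for FICZ against control. This entry, AK078642, spans 8 exons and 1609 nt and was chosen after seeing the data. It held 34.5, 33.3 and 38.3 CPM with FICZ, 43.5, 37.5 and 44.4 CPM with tryptamine and 46.7, 42.1 and 53.9 CPM in controls. Every FICZ library was below every control, as for 7.41% of all genes tested. Of the 3 tryptamine libraries 2 lay within the range of the controls. In the authors' deposited table its log2 fold change for FICZ against control was -0.49, with an adjusted p of 0.00868. For tryptamine against control the authors' deposited table gives -0.25, with an adjusted p of 0.539. For the 4161-nt entry the authors' deposited table gives -0.33 for FICZ, with an adjusted p of 0.0528, and for the other 4 entries -0.30 to -0.33, with adjusted p-values of 0.0582 to 0.11. With AK078642 in place of the 4161-nt entry, edgeR gave a log2 fold change of -0.43 ± 0.127 for FICZ against control, with an adjusted p of 0.570. Without control replicate 3 this was -0.33 ± 0.108, with an adjusted p of 0.230 by edgeR. The reads of this entry amounted to 46.3 ± 1.94% of those of the 4161-nt entry with FICZ, 50.7 ± 1.89% with tryptamine and 51.3 ± 6.34% in controls (SD, n = 3 each). The highest share, 58.6%, was that of control replicate 3, and without it the 2 other controls, at 48.2% and 47.2%, lay within the FICZ range of 44.4 to 48.3%.

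**Figure D3:**
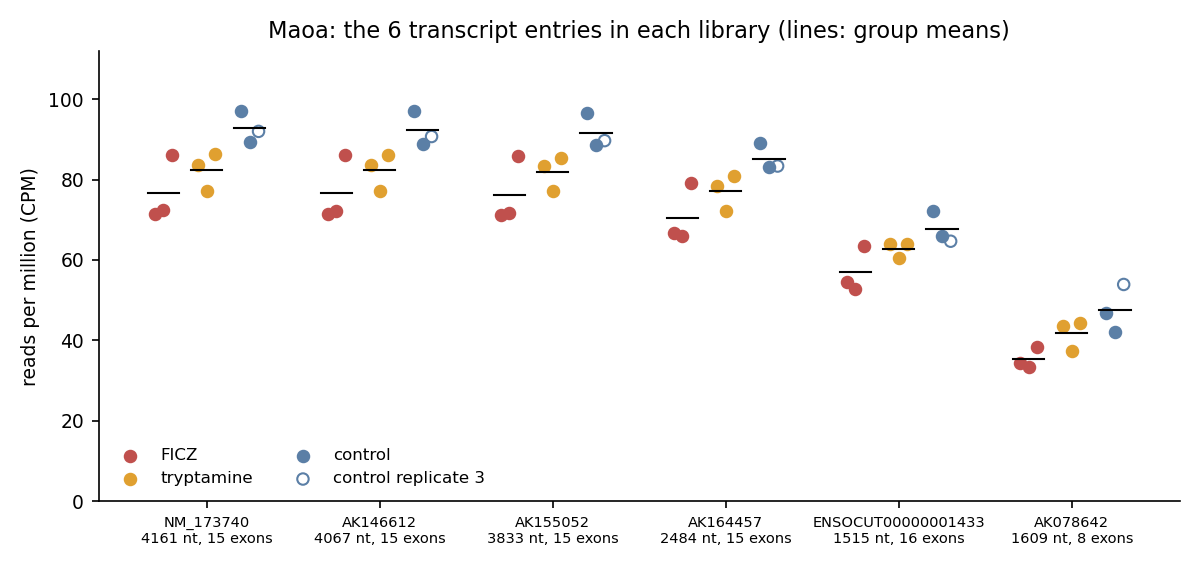
Levels in CPM of the 6 Maoa entries in every library, on a linear axis from 0, with FICZ, tryptamine and control from left to right, a line for each group mean and an open point for control replicate 3. Means of the 4161-nt entry were 76.7, 82.4 and 92.7 CPM and those of the 8-exon entry AK078642 were 35.4, 41.8 and 47.6 CPM.

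Maob, whose enzyme prefers phenylethylamine, was barely detected in these cells at this depth. It had 3 reads, all in FICZ replicate 3, and 0 in the 8 other libraries. A count of 0 allows up to 3 reads, or 0.179 to 0.256 CPM depending on the library. Over the 9 libraries together Maoa had 10858 reads and Maob 3, a ratio of 2098 per kilobase, with an exact 95% interval of 718 to 10175 that covers counting error only. Maob did not pass the filter on low counts, and with no filter its difference between FICZ and control did not pass edgeR's test (adjusted p = 0.704).

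Aldh2 encodes the mitochondrial aldehyde dehydrogenase that oxidises acetaldehyde and aldehydes from monoamines. It was the highest of the 10 genes and did not pass the test in any comparison. Its entry (gene ID 11669, ENSMUST00000031411, 3867 nt in 13 exons) reached 333, 305 and 293 CPM with FICZ, 312, 347 and 278 CPM with tryptamine and 296, 318 and 363 CPM in controls. The highest library was control replicate 3 and the lowest tryptamine replicate 3, and the 3 groups overlapped. Means were 310 ± 20.5 CPM with FICZ, 312 ± 34.6 CPM with tryptamine and 326 ± 34.5 CPM in controls (SD, n = 3 each). In edgeR's test the log2 fold change was -0.07 ± 0.113 for FICZ against control (adjusted p = 0.801) and -0.06 ± 0.113 for tryptamine against control (adjusted p = 0.847). Both changed sign without control replicate 3, to 0.0172 for FICZ and 0.0219 for tryptamine. The 95% intervals over 9 libraries ran from -0.32 to 0.18 for FICZ and from -0.31 to 0.19 for tryptamine.

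The decarboxylase, the hydroxylase and the methyltransferase of the list were at or near 0. Ddc, the aromatic amino acid decarboxylase that makes tryptamine and serotonin, had 1, 0 and 1 reads with FICZ, 2, 0 and 5 with tryptamine and 3, 9 and 0 in controls. Its sums of 2, 7 and 12 reads had exact 95% Poisson intervals of 0.242 to 7.22, 2.81 to 14.4 and 6.20 to 21.0, which cover counting error only, and 9 of the 12 control reads came from replicate 2. Tph1, the tryptophan hydroxylase of peripheral serotonin synthesis, had 0 reads in all 9 libraries over all of its 9 entries. Inmt, which methylates tryptamine, had 2 reads, both in tryptamine replicate 1. Across the 9 libraries a count of 0 allows up to 0.0231 CPM.

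Of the 4 genes of the kynurenine route, only Afmid was tested. Ido1, the dioxygenase induced by interferon, had 0 reads in all 9 libraries over its 4 entries. Tdo2, the dioxygenase of hepatocytes, had 3, 0 and 2 reads with FICZ, 2, 2 and 18 with tryptamine and 0, 4 and 0 in controls. The 18 reads of tryptamine replicate 3 set that group's sum of 22 apart from the sums of 5 with FICZ and 4 in controls. None of these 18 reads fell in the RefSeq entry of Tdo2 (NM_019911, 1635 nt), which had 0, 0 and 2 reads with FICZ, 2, 2 and 0 with tryptamine and 0, 3 and 0 in controls. Kmo, which hydroxylates kynurenine, had 1 read with tryptamine and 2 in controls, all in its 1528-nt entry, and its other 10 entries had 0.

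Afmid encodes the formamidase that releases kynurenine from formylkynurenine. It did not pass the test in any comparison. Its entry (gene ID 71562, NM_027827, 2332 nt in 11 exons) held 257, 260 and 273 reads with FICZ, 251, 244 and 318 with tryptamine and 298, 264 and 194 in controls. Scaled, these were 18.3, 15.5 and 18.7 CPM with FICZ, 17.1, 18.8 and 20.5 CPM with tryptamine and 20.2, 18.2 and 16.5 CPM in controls. The groups overlapped, with the lowest value in FICZ replicate 2 and the highest in tryptamine replicate 3. By edgeR's test the log2 fold change was -0.07 ± 0.138 for FICZ against control (adjusted p = 0.843) and 0.04 ± 0.138 for tryptamine against control, whose adjusted p was 0.922. Without control replicate 3 the FICZ value was -0.13 ± 0.139 and the tryptamine value turned to -0.0289. The shorter entry ENSMUST00000149668, assigned to Afmid through its transcript ID, held fewer reads, at 5.91 ± 0.516 CPM with FICZ, 6.28 ± 1.20 CPM with tryptamine and 8.18 ± 1.83 CPM in controls (SD, n = 3 each). In the authors' deposited table that entry had a log2 fold change of -0.51 for FICZ against control, with an adjusted p of 0.205. Syngr2, which shares the locus label, was counted in entries of its own, and whether reads of one gene were counted for the other is not given in the sources used here.

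Neither agent therefore gave a call among the 3 tested genes. By edgeR's test 0 of 3 passed for FICZ against control, where 14 of 12374 genes (0.113%) did, all of them higher with FICZ. For tryptamine against control 0 of 3 passed, against 1 gene (0.00808%) of all tested, which was Cyp1a1. At an unadjusted p under 0.05 the counts were 1 of 3 for FICZ (Maoa) and 0 of 3 for tryptamine, beside 8.11% and 5.15% of all genes. Maoa no longer reached it when FICZ replicate 1, FICZ replicate 2 or control replicate 1 was left out, and its 95% interval then included 0. DESeq2's Wald test called 0 of the 3 in either comparison, and so did the fit without control replicate 3, which called 101 genes (0.805%) for FICZ and 25 (0.199%) for tryptamine. The Wald test called 54 genes (0.436%) for FICZ and 12 (0.0970%) for tryptamine. Without any single other library the count for FICZ was 4 to 11. The 2 comparisons share their control libraries.

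FICZ and tryptamine were also set against each other, at doses of 10 nM and 50 uM, so that agent and dose differ together. For Maoa the log2 fold change of FICZ against tryptamine was -0.10 ± 0.106, with a 95% interval of -0.34 to 0.13. For Aldh2 it was -0.01 ± 0.113 and for Afmid -0.11 ± 0.138, with intervals of -0.26 to 0.24 and -0.41 to 0.20. None passed edgeR's test, where 0% of all 12374 genes passed and 1.73% had an unadjusted p under 0.05, and none passed DESeq2's Wald test, which called 10 genes (0.0808%). The intervals do not show that the agents act alike on these genes. Without control replicate 3, when 17 genes (0.136%) were called, the Maoa value was -0.10. It was -0.20 without FICZ replicate 3, -0.056 without FICZ replicate 1, -0.065 without FICZ replicate 2 and -0.069 without tryptamine replicate 3. With the 8-exon entry AK078642 it was -0.24 ± 0.127, and without control replicate 3 also -0.24, with a 95% interval of -0.44 to -0.04 and an adjusted p of 0.707 by edgeR.

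**Figure D4:**
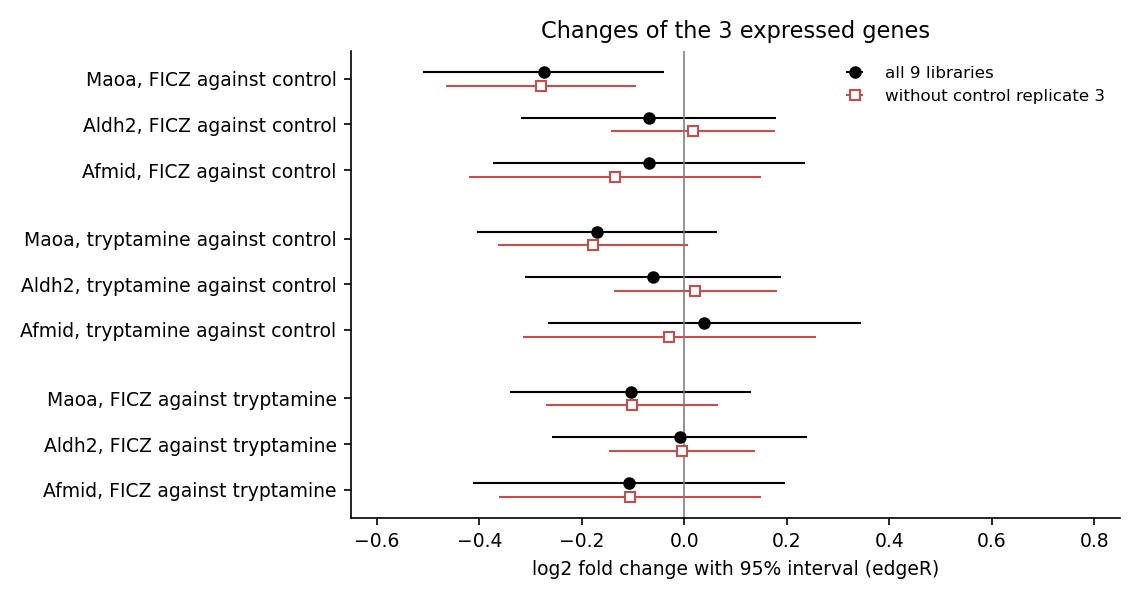
Log2 fold changes of Maoa, Aldh2 and Afmid with 95% intervals from edgeR in the 3 comparisons, with all 9 libraries (filled circles) and without control replicate 3 (open squares). Only the intervals of Maoa for FICZ against control, centred on -0.27 and -0.28, lay wholly below 0 in these 2 fits.

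The promoter windows of Maoa and Afmid are shown beside that of Cyp1a1, the AhR target that rose with both agents. The sequences are RefSeq's on build GRCm38.p6, from 250 bases before to 50 after the annotated start, all on the plus strand and written 5′ to 3′. Capitals mark GCGTG, the core of the site that AhR binds with its partner ARNT, and GGGCGG, the GC box bound by Sp1-type factors, on either strand. The windows lie at chrX:16619448-16619747 for Maoa, chr11:117825669-117825968 for Afmid and chr9:57697363-57697662 for Cyp1a1.
Maoa: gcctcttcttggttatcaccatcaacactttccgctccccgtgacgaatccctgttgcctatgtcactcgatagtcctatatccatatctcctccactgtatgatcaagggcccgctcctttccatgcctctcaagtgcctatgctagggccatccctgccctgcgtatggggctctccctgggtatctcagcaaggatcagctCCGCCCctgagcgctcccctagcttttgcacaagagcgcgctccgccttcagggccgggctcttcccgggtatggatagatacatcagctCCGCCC
Afmid: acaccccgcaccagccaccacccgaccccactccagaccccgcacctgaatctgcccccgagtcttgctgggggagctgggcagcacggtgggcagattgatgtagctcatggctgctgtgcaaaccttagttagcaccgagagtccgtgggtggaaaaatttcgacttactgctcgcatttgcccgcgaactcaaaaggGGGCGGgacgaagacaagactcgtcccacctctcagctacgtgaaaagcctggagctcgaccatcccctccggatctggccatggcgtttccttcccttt
Cyp1a1: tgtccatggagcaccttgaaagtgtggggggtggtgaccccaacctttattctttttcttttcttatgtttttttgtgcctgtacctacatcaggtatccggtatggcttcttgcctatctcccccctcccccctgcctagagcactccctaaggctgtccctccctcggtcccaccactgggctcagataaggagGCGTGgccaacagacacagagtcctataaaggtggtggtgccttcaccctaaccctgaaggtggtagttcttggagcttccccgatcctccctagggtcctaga
Maoa had no GCGTG in this window and 2 GC boxes, both on the minus strand, at -46 and +44 from the start. Afmid had no GCGTG and 1 GC box, at -50. Cyp1a1 had 1 GCGTG, at -54, and no GC box. Of 32851 such windows of all genes, 32.39% held GCGTG and 35.66% held GGGCGG, so either pattern is common. Of the 10 genes, 7 had an entry in the promoter table, and Aldh2 was not among them. GCGTG stood in 1 window each of Ddc, Tdo2 and Tph1, genes with 21, 31 and 0 reads in all. Sequence outside the windows was not searched, so a GCGTG farther from the start of Maoa, Afmid or Cyp1a1 would be missed. Whether the GCGTG in the Cyp1a1 window had a part in the rise of that gene was not tested. No measurement of binding was examined for any of the windows.

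The rest of the pathway was read from 8 lists, of which 77 genes were in the tables, 62 had a count and 50 were tested. None of the 50 passed edgeR's test in any comparison, with all libraries or without control replicate 3, where 51 were tested. At an unadjusted p under 0.05 there were 5 for FICZ against control, 4 for tryptamine against control and 0 for FICZ against tryptamine, beside 8.11%, 5.15% and 1.73% of all genes. With control replicate 3 left out these counts were 8, 1 and 4 of 51, beside 9.97%, 6.57% and 5.96% of all genes. Over 9 libraries their median log2 fold change was -0.12 for FICZ and -0.07 for tryptamine against control, beside -0.01 and 0.00 over all genes tested. With control replicate 3 left out both medians were -0.04, so the lower medians moved with that library.

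The aldehyde enzymes held the smallest p-values. Aldh3a2, the fatty aldehyde dehydrogenase, had 109, 109 and 110 CPM with FICZ, 100, 102 and 102 CPM with tryptamine and 94.8, 88.9 and 71.5 CPM in controls. All treated libraries were above all controls, as for 8.21% of all genes with FICZ and 5.20% with tryptamine, and the lowest value was that of control replicate 3. Its log2 fold change for FICZ was 0.36 ± 0.11, with an adjusted p of 0.601 by edgeR, and without control replicate 3 it was 0.25 ± 0.075, with an adjusted p of 0.146. Aldh1a1, a cytosolic retinal and aldehyde dehydrogenase, averaged 569 ± 24.2 CPM with FICZ, 626 ± 40.8 CPM with tryptamine and 678 ± 41.1 CPM in controls, with a log2 fold change of -0.25 ± 0.087 for FICZ that did not pass. Adh5 and Akr1b3, which act on aldehydes as well, had log2 fold changes of -0.30 ± 0.12 and -0.34 ± 0.16 for FICZ and did not pass. Akr1a4, an aldehyde reductase at 578 CPM over the 9 libraries, had -0.15 ± 0.096. All 3 were highest in control replicate 3, and without it their values were -0.16 ± 0.072, -0.15 ± 0.11 and -0.043 ± 0.057. Of the 11 genes in this list 8 were tested, 1 above and 7 below 0 for FICZ.

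In the kynurenine and NAD list 8 of 14 genes were tested. Got2, an aminotransferase that also acts on kynurenine, averaged 253 CPM and Nampt, of NAD salvage, 57.7 CPM, with log2 fold changes for FICZ of -0.04 ± 0.079 and 0.06 ± 0.099. Nadsyn1, which completes NAD synthesis, had the smallest p of the list, with a log2 fold change of -0.72 ± 0.26 for tryptamine against control that did not pass (adjusted p = 0.741, edgeR). It lay at 3.13, 4.17 and 4.26 CPM with tryptamine, 4.94, 5.57 and 8.62 CPM in controls, and without control replicate 3 its value was -0.45 ± 0.25. Kynu and Haao, which act on the way to quinolinate, had 46 and 4 reads over all libraries. Qprt, which consumes quinolinate, and Aadat, which makes kynurenic acid, had 0.

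In the list of serotonin, melatonin and other indole enzymes, which includes the pterin cofactor's, 7 of the 8 genes in the tables were tested and none passed. For FICZ all 7 were below 0, as were 6303 of the 12374 genes tested, with a median log2 fold change of -0.23. When control replicate 3 was left out, 5 were below and 2 above 0, with a median of -0.036. Pcbd1, which regenerates the cofactor, had a log2 fold change of -0.31 ± 0.14 for FICZ and -0.13 ± 0.081 without control replicate 3. Tph2, the neuronal tryptophan hydroxylase, had only 1.57 ± 0.662 CPM with FICZ, 1.80 ± 0.620 CPM with tryptamine and 2.43 ± 0.679 CPM in controls (SD, n = 3 each). The value of Il4i1 is uncertain, since RefSeq's Nup62 transcript stands under its gene ID with 15674 reads, while its own RefSeq transcript had 81 over all libraries. This uncertain value is counted among the 7 here and among the 50 pathway genes tested, and their medians include it.

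Of the other amine oxidases and conjugating enzymes, 5 of 10 were tested. Smox, the spermine oxidase, averaged 24.4 ± 0.847 CPM with FICZ, 20.1 ± 3.20 CPM with tryptamine and 19.5 ± 1.70 CPM in controls (SD, n = 3 each). Its log2 fold change of 0.32 ± 0.14 for FICZ against control did not pass (adjusted p = 0.601, edgeR). Abp1, the diamine oxidase, lay at 1.30 ± 0.0681 CPM with tryptamine and 2.46 ± 0.498 CPM in controls, with a log2 fold change of -0.92 ± 0.32 that did not pass (adjusted p = 0.741, edgeR). Aoc3 had 52 reads in all, and Hnmt and Nat1 had 0.

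Uptake of tryptophan and its loading on tRNA were well represented. Slc7a5 and Slc3a2, the chains of a transporter for large neutral amino acids, averaged 290 and 179 CPM, and Wars, the tryptophanyl-tRNA synthetase, 213 CPM. Their log2 fold changes for FICZ were 0.03 ± 0.10, -0.09 ± 0.11 and -0.05 ± 0.10, and for tryptamine 0.14 ± 0.10, 0.03 ± 0.11 and -0.06 ± 0.10. The values for FICZ without control replicate 3 were -0.055 ± 0.065, -0.023 ± 0.079 and -0.098 ± 0.078, so that Slc7a5 changed sign, and those for tryptamine were 0.050 ± 0.065, 0.096 ± 0.079 and -0.11 ± 0.078. Of the transporters for monoamines, Slc22a2, Slc22a3, Slc6a2 and Slc6a3 had 0 reads and the serotonin transporter Slc6a4 had 6. By contrast, Slc18a1 and Slc18a2 had enough reads to be tested, and neither passed. The smallest p of the transport list in any comparison was that of Slc18a2. In the list of transport genes 7 of 18 were tested, 4 above and 3 below 0 for FICZ.

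Of 7 genes known to regulate monoamine oxidase genes, 6 were tested and Sry had 0 reads. Sp1, which acts on GC boxes, averaged 179 ± 7.26 CPM with FICZ, 173 ± 10.5 CPM with tryptamine and 145 ± 43.5 CPM in controls. Control replicate 3 alone was at 94.4 CPM, and without it the log2 fold changes for FICZ and tryptamine were 0.07 ± 0.070 and 0.03 ± 0.070. Cdca7l, a repressor of MAOA in human cells, had a log2 fold change of -0.17 ± 0.099 for FICZ and 0.03 ± 0.099 for tryptamine. All 7 genes of the flavin cofactor and of peroxide removal were tested. Gpx1, which reduces hydrogen peroxide, had a log2 fold change of -0.39 ± 0.17 for tryptamine, and -0.15 ± 0.095 without control replicate 3.

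**Figure D5:**
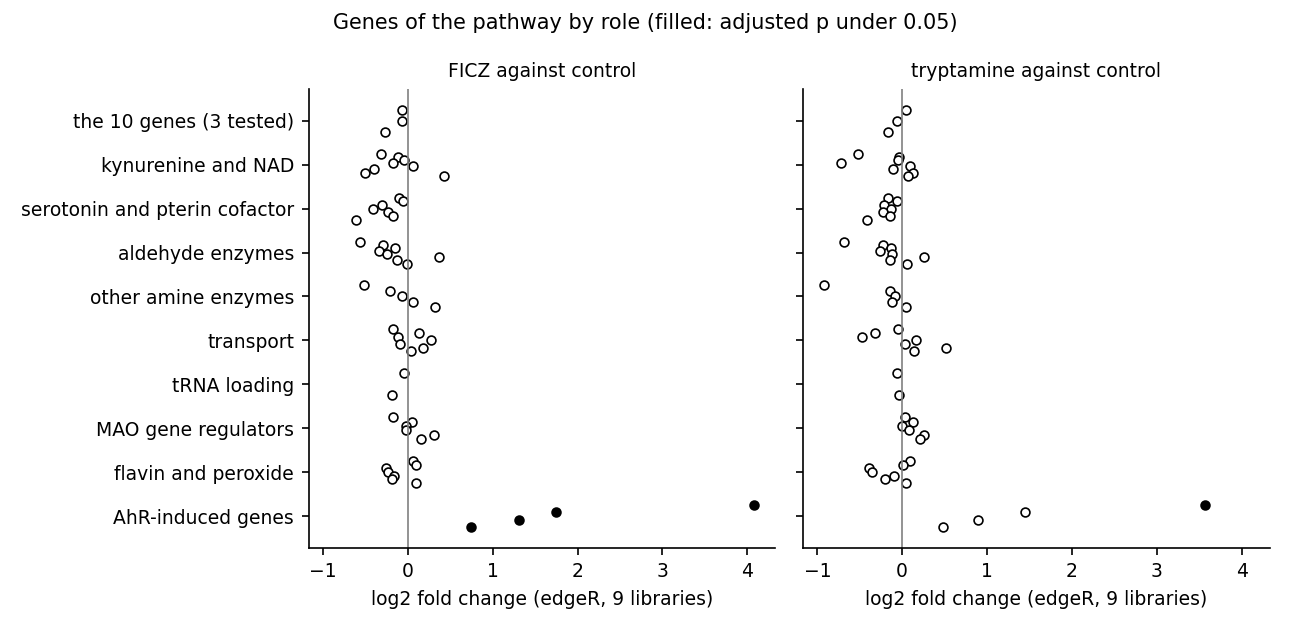
Log2 fold changes from edgeR over 9 libraries of the 3 tested genes of the 10, of the tested genes in the 8 pathway lists and of 4 AhR-induced genes, for FICZ against control (left) and tryptamine against control (right), each point a gene and filled where the adjusted p was under 0.05. No pathway gene is filled, while 4 AhR-induced genes are filled for FICZ and 1 for tryptamine. All 4 lay above 0 for tryptamine, and 3 of them passed in the fit without control replicate 3, which is not drawn.

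The genes whose log2 CPM over the 9 libraries was most like that of Maoa were sought among 8973 genes with a mean of at least 10 CPM. Vcam1, an adhesion molecule, had a Pearson correlation of 0.96 with Maoa, followed by G930009F23Rik and Pvrl3 (0.90 each), Ctgf and Serpinb7 (0.89 each). Vcam1 averaged 84.3 CPM with FICZ, 94.3 CPM with tryptamine and 105 CPM in controls, so that its order of groups was that of Maoa. Without control replicate 3 the correlations of these 5 genes with Maoa were 0.88 to 0.95. The 5 genes were picked for high correlation in these same libraries, so neither these values nor Vcam1's order of groups is a separate test. For Aldh2 the most similar were Pkm2 (0.99), Ndufb11 and Pfn1 (0.98 each), Fau and Sgta (0.97 each). These correlations describe 9 libraries that share 3 groups and differ in depth.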

How the data were processed

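Total RNA of 9 libraries was sequenced, 3 for each of 3 groups. Per the file headers, the deposited tables hold raw counts of reads for each of 189660 transcripts, and the same 9 libraries stood with identical values wherever they were repeated. The authors also deposited a log2 fold change and a raw and adjusted p-value per transcript. DESeq, with no version, is named in the submitters' processing notes. Which aligner, counting rule, annotation and genome build were used is not given in the sources used here. Another 18 columns of per-library values were not used.

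For each gene the transcript with the highest mean count was kept, since sums over transcripts came to 5.37 to 5.62 times this total. Transcripts without a gene ID, 3.56 to 4.23% of the counts, were left out. Of 5653 entries naming several loci, 928 were assigned through a RefSeq accession. The 9 libraries were fitted together with edgeR 4.0.16 (R 4.3.3), using TMM scaling, filterByExpr, group as the only term, the quasi-likelihood test and Benjamini-Hochberg adjustment over all genes tested. A gene passed at an adjusted p under 0.05. CPM use the effective library size. The script was tested on simulated data. Exact intervals and the limit of 3 counts set for a count of 0 cover counting error only, since reads are not independent molecules.

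Alternatives were DESeq2 1.42.0 size factors and its Wald test, no filter, a minimum of 10 counts in all libraries of a group, only the 6 libraries compared, sums over transcripts, a replicate block and each library left out. The use of entry AK078642 for Maoa was chosen after seeing the data. The 10 genes and all lists were chosen with earlier results of these data known. From each list the text names up to 4 genes with the smallest p in any comparison and the 2 with the highest mean count, and the 5 genes most correlated with Maoa and with Aldh2 (log2 of CPM plus 0.5). Genes named only for being at or near 0 were chosen after their values were seen. Some genes that fall under this rule are not reported here.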

Additional observations from a re-analysis of the deposited data

How the results depend on the processing

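None of the 3 tested genes passed in any of the 16 alternatives. The log2 fold change of Maoa kept its sign in all of them and with its 8-exon entry, at -0.43 to -0.23 for FICZ (adjusted p 0.216 to 0.834, edgeR or DESeq2), -0.20 to -0.09 for tryptamine and -0.24 to -0.06 for FICZ against tryptamine.

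The signs of Aldh2 and Afmid did not hold when single libraries were left out, and the cause was not tested. For FICZ, Aldh2 ranged from -0.14 to 0.0172 (0.0172 without control replicate 3) and Afmid from -0.13 to 0.0142 (0.0142 without FICZ replicate 2, 0.00612 without control replicate 1). For tryptamine, Aldh2 ranged from -0.14 to 0.0219 (0.0173 without tryptamine replicate 3, 0.0219 without control replicate 3) and Afmid from -0.0289 to 0.11 (-0.0273 without tryptamine replicate 3, -0.0289 without control replicate 3). For FICZ against tryptamine, Aldh2 ranged from -0.0852 to 0.0748 (0.00343 without FICZ replicate 2, 0.0320 without FICZ replicate 3, 0.0748 without tryptamine replicate 2), while Afmid kept its sign.

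Counts over all genes moved more. For FICZ, 14 genes became 54 with the DESeq2 Wald test, 26 with no filter, 2 with only the 6 libraries compared, 4 with sums over transcripts and 4 to 101 with a library left out. For tryptamine, 1 gene became 12 with the Wald test, 2 with no filter, 2 with sums and 1 to 25 with a library left out. For FICZ against tryptamine, 0 became 10 with the Wald test, 17 with only the 6 libraries compared and 0 to 17 with a library left out. The highest count with a library left out came each time without control replicate 3. The square root of edgeR's common dispersion was 0.156 with that library and 0.0748 without it.

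With a replicate block 4 genes passed for FICZ, 1 for tryptamine and 0 for FICZ against tryptamine, and none was among the 10. Libraries with equal numbers correlated at -0.058 to 0.116 in their deviations from group means, and those with unequal numbers at -0.122 to 0.102. The labels do not say that equal numbers share a day or culture, so the numbers were not taken as pairs. Depth limits Maob, Ddc, Tph1, Inmt, Ido1, Tdo2 and Kmo, for which no fold change is given.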
